A study of Mus musculus with 17 samples.

Results

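Nfe2l2, which encodes the transcription factor Nrf2, its inhibitor Keap1, and 7 genes that Nrf2 is known to switch on (Nqo1, Hmox1, Srxn1, Txnrd1, Cbr3, Abcc4 and Slc7a11) were followed in mouse livers 24 h after acetaminophen (APAP) or saline. These 9 genes were chosen by name, from a deposited table of 46073 genes, and all 9 were found in it. The table held 17 liver RNA-seq libraries from male C57BL/6 mice of 11 or 12 weeks, given saline or APAP, with genotypes labelled Nampt +/+ (WT), Nampt +/- (Het) and Nampt OE (OE). The saline groups had 3 WT, 2 Het and 2 OE livers, and the groups at 200 mg/kg APAP had 3 WT, 3 Het and 2 OE livers. The remaining libraries were 1 WT mouse whose saline is labelled IG and 1 OE mouse given 300 mg/kg APAP. The labels do not say how OE was made, which promoter drives it or how the Het allele was disrupted, and nothing in them says that mice were pooled. The question that the design poses is whether the response of the liver to APAP depends on Nampt, an enzyme of NAD synthesis.

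Keap1 holds Nrf2 in the cytoplasm and passes it to a ubiquitin ligase. When reactive electrophiles, such as the quinone imine formed from APAP, modify the cysteines of Keap1, Nrf2 escapes degradation, enters the nucleus, pairs with a small Maf protein and binds antioxidant response elements. Its control is therefore largely at the level of the protein, which these RNA measurements do not see. The targets reduce quinones and carbonyls, repair oxidised peroxiredoxins, break down haem, take up cystine for glutathione and export conjugates. In the liver the system is best known for limiting APAP injury in hepatocytes, and several targets, Hmox1 above all, are also made by macrophages.

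The short core of the antioxidant response element, TGACNNNGC, was searched on both strands of RefSeq promoter windows of 300 bases (250 before and 50 after each start site, GRCm38.p6). Of 32851 windows in all, 12.4% held the core. Windows were given for 8 of the 9 genes, 11 windows in all; 5 windows, of 4 genes, held the core. They are printed 5′ to 3′ on the strand of the gene, with the core in capitals, because they show what a match looks like in genes whose RNA did and did not change.
Nfe2l2, chr2:75704885-75704913: tcagcccaccTGACTCCGCcatgccccgg
Srxn1, chr2:152105542-152105570: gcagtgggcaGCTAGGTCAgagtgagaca
Txnrd1, second start, chr10:82859104-82859132: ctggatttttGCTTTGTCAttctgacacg
Abcc4, first start, chr14:118706226-118706254: gccccgagagGCGGGGTCAgggcgggccg
Abcc4, second start, chr14:118676936-118676964: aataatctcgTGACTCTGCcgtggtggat
The cores of Nfe2l2 and of the second Abcc4 start read along the gene, at positions -240 and -23 from the start site, and those of Srxn1 (position 29), Txnrd1 (position -92) and the first Abcc4 start (position -25) lie on the opposite strand. The Nfe2l2 core overlaps an exon of E030042O20Rik and the Srxn1 core lies in the first exon of Srxn1 itself. The windows of Keap1, Nqo1, Cbr3 and Slc7a11 did not hold these letters, which says nothing about sites elsewhere. Abcc4 is the only one of the 4 genes for which the 250 bases before the start are free of annotated exons, and those of its first start (chr14:118706220-118706469, gene strand, core in capitals) read as follows.
Abcc4, first start: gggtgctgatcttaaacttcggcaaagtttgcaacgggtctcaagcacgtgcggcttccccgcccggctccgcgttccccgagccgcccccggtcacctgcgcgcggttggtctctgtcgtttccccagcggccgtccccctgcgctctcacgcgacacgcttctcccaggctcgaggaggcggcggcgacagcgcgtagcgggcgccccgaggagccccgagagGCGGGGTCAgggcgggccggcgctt
A match describes the sequence and not a bound site; no binding was measured here.

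Levels are in FPKM, a count of fragments divided by transcript length and by the size of the library, so that genes can be compared with each other; the read depth behind them is unknown. Differences were fitted with limma on log2(FPKM + 1), which understates the change of genes below about 1 FPKM, with a term for liver perfusion; adjusted p is Benjamini-Hochberg over the 11083 genes whose mean reached 1 FPKM. As the check of the labels, Nampt was 18.0, 15.3 and 18.0 FPKM in WT saline, 26.0 and 23.0 in Het saline and 22.4 and 27.2 in OE saline. After APAP it was 12.0, 10.9 and 16.7 in WT, 15.4, 11.3 and 15.2 in Het, and 36.0 and 18.5 in OE. Nampt was thus not lower in the libraries labelled Het than in those labelled WT. In OE minus WT it did not pass under saline (0.47 ± 0.24, log2 and SE, limma adjusted p = 0.899) or after APAP (1.05 ± 0.26, adjusted p = 0.121). In OE minus Het it passed after APAP (0.89 ± 0.24, limma adjusted p = 0.0319) but not under saline (-0.10 ± 0.28, adjusted p = 0.993). Het and OE below therefore mean the libraries carrying those labels. OE saline 2 and OE APAP 1, of sequencing lane L004, stood apart from all other libraries on the second principal component (12.8% of the variance), with scores of 38.5 and 39.0 against -17.9 to 15.2. The OE library given 300 mg/kg, also of lane L004, did not stand with them (-13.8). Lane and perfusion are unevenly spread over the groups, and WT saline shares a lane only with the IG library, so a WT response and a lane difference cannot be told apart. Hepatocyte markers summed to between 12263 and 15377 FPKM in saline and between 6298 and 11548 in APAP livers. In the response averaged over genotypes 4 of 7 tested fell, beside 13.3% of all genes called lower. Alb is listed at 0 in every library. In whole tissue, fewer cells of a type and less RNA per cell cannot be told apart.

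The regulator and its inhibitor changed little at the RNA level. Nfe2l2 (chr2:75675513-75704641, minus strand, GRCm38) was 22.6, 26.1 and 21 FPKM in WT saline, 24.8 and 24.9 in Het saline and 18.6 and 30.0 in OE saline. After APAP it was 14.3, 19.9 and 21.2 in WT, 19.7, 24.2 and 22.7 in Het, and 22.7 and 18.9 in OE. The groups overlapped in WT and OE, while all 3 Het APAP livers lay just below both Het saline livers, as 33.3% of tested genes did. The response averaged over the 3 genotype labels was -0.32 ± 0.13 (log2, SE; limma adjusted p = 0.103), and -0.45 (adjusted p = 0.0393) without WT saline 3, the only alternative of those run in which it passed. Keap1 (chr9:21229730-21239361, minus strand) ranged from 9.32 to 13.5 FPKM in the 7 saline livers (median 11.3) and from 8.25 to 11.6 in the 8 livers given 200 mg/kg APAP (median 9.75). Its averaged response was -0.22 ± 0.08 (limma adjusted p = 0.0804), and the groups overlapped under every genotype label. An antisense gene, Gm16754, overlaps Keap1; the kit marks strand, but how strand was used in counting is not given in the sources used here.

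**Figure D1:**
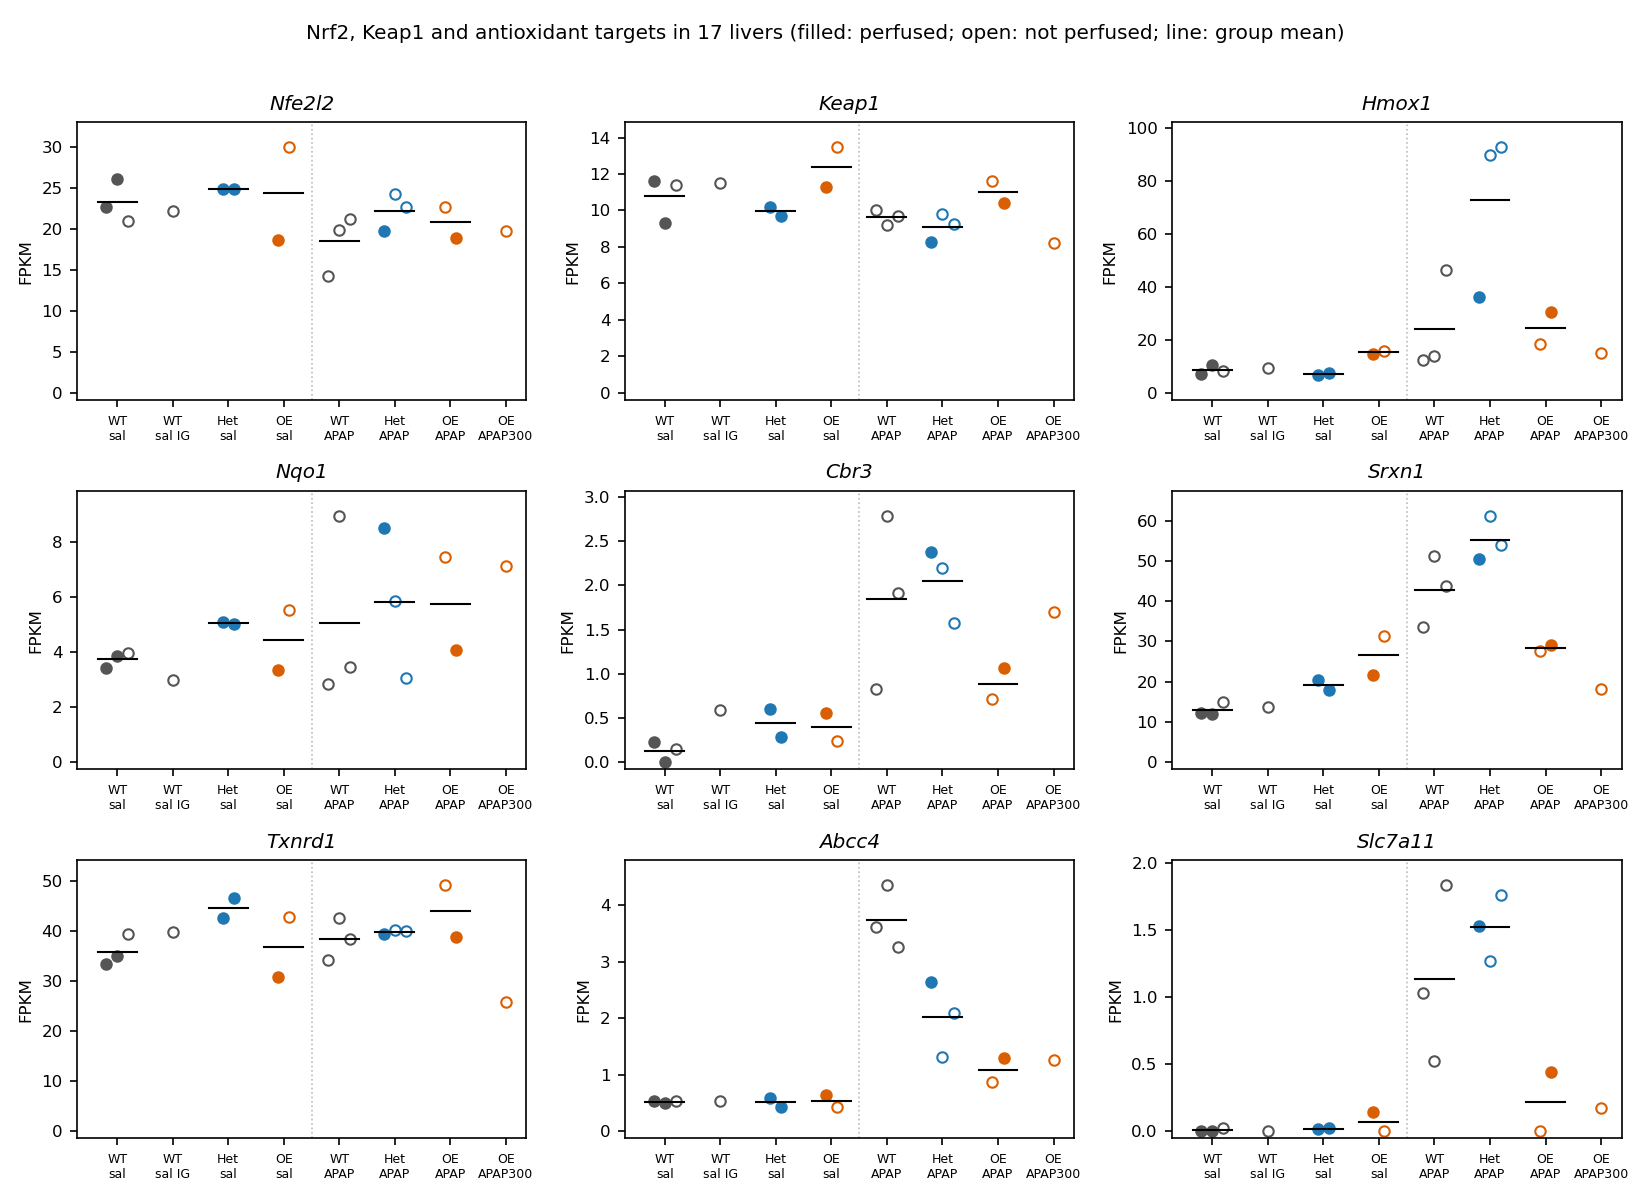
FPKM of the 9 genes in each of the 17 libraries, one panel per gene and one point per library, by genotype label and treatment, filled for perfused livers, with a line at each group mean. Srxn1, Cbr3, Abcc4 and Slc7a11 lie higher in the WT and Het livers given APAP than in those given saline, Hmox1 is highest in Het APAP 2 and 3 (89.6 and 92.9 FPKM), and Nfe2l2, Keap1 and Txnrd1 stay within narrow ranges.

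Among the targets, Srxn1, Cbr3, Abcc4 and Hmox1 rose after APAP and Nqo1 and Txnrd1 did not pass the test. In the averaged response 4 of the 8 tested genes were called higher, beside 9.81% of all genes called higher (23.1% called in either direction). In WT 3 of 8 were higher (Srxn1, Cbr3 and Abcc4; 1.97% of all genes higher), and in Het 4 of 8 (these and Hmox1; 9.07%). In OE none of the 8 was called, and neither was any of the 11083 genes (0%). An unadjusted p under 0.05 was found for 534 genes, against 554 given by chance, and each OE arm holds 2 libraries. Cbr3 and Abcc4 lie below 1 FPKM in every saline library and entered the test only through their APAP values, so these counts describe the genes and carry no support beyond them. Slc7a11, with a mean of 0.515 FPKM, was not tested.

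**Figure D2:**
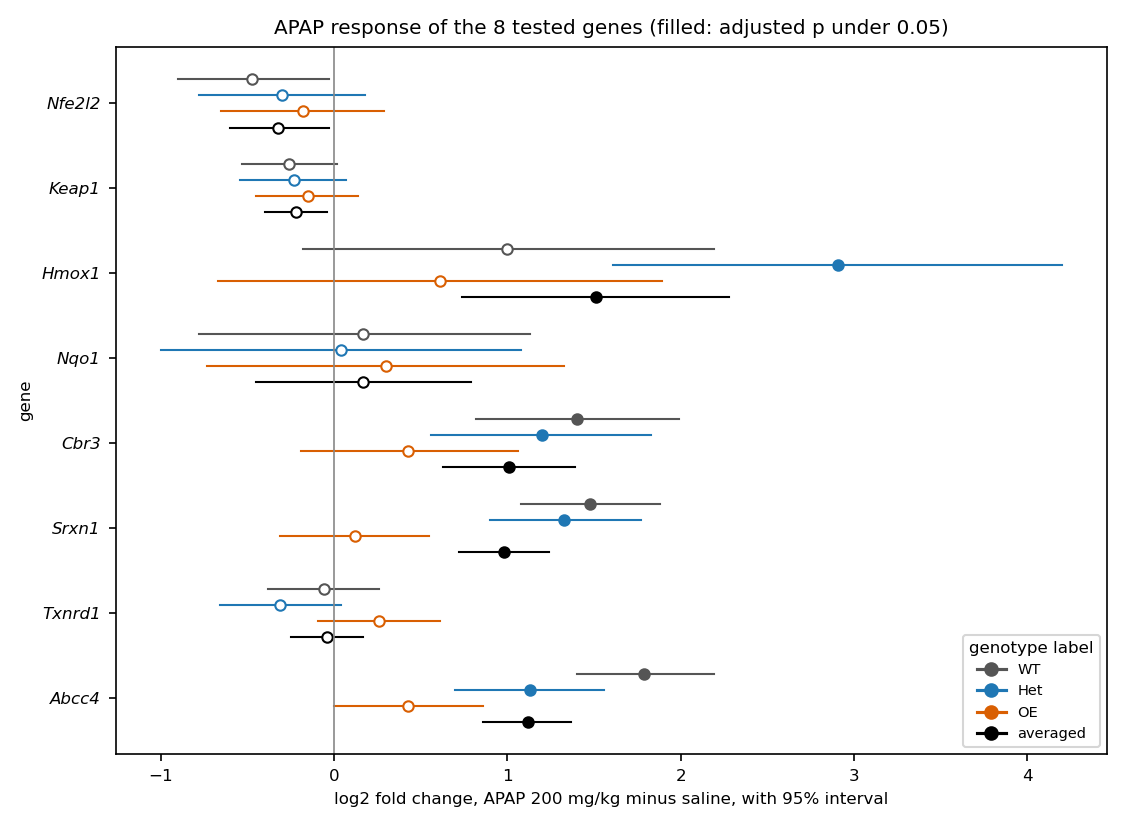
Fitted APAP response of the tested genes, as log2 difference on log2(FPKM + 1) with its 95% interval, in WT, Het and OE and averaged over them. Abcc4, Srxn1 and Cbr3 sit at 1.13 or above in WT and Het and at 0.43 or below in OE, Hmox1 reaches 2.91 in Het, and Nfe2l2, Keap1, Nqo1 and Txnrd1 lie between -0.47 and 0.30, none past the threshold (open points).

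Srxn1, the sulfiredoxin that repairs over-oxidised peroxiredoxins, rose by similar amounts in WT and Het and did not pass the test in OE. Srxn1 (chr2:152105516-152111376, plus strand) was 12.3, 11.9 and 14.9 FPKM in WT saline and 33.7, 51.2 and 43.8 in WT APAP. It was 20.4 and 17.9 in Het saline, and 50.5, 61.3 and 53.9 in Het APAP. In both genotypes every APAP liver lay above every saline liver, as in 16.4% of tested genes in WT and 25.4% in Het, and was 3.29 times higher in WT and 2.89 times in Het by the mean FPKM. The fitted responses were 1.48 ± 0.18 in WT (limma adjusted p = 0.00221) and 1.33 ± 0.20 in Het (adjusted p = 0.00154), and both passed under every alternative that gave them an estimate. With lane as the term the WT response had none. In OE the level was already 21.7 and 31.3 FPKM with saline and was 27.6 and 29.2 with APAP, so the OE groups overlapped. The OE response was 0.12 ± 0.20 (95% interval -0.31 to 0.55; limma adjusted p = 1). Within lane L008 the difference was 1.36 in Het, between 1 APAP and 2 saline libraries, and 0.41 in OE, between 1 library of each. In lane L004 the OE difference between 1 APAP and 1 saline library was -0.18.

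Txnrd1, the cytosolic thioredoxin reductase, had the highest level of the 9 genes in every saline liver and did not follow Srxn1. It (chr10:82833951-82897712, plus strand) ranged from 30.8 to 46.6 FPKM in saline (median 39.3) and from 34.2 to 49.2 in APAP (median 39.7). Its averaged response was -0.04 ± 0.10 (95% interval -0.25 to 0.17; limma adjusted p = 0.814). The Het APAP livers (39.4, 40.1 and 39.9) all lay below the Het saline livers (42.6 and 46.6), as in 33.3% of tested genes. The fitted difference of -0.31 ± 0.16 did not pass (limma adjusted p = 0.189). The protein-coding gene Eid3 lies inside Txnrd1 on the same strand, so reads there could be assigned to either.

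Hmox1, the inducible haem oxygenase, showed the widest range in FPKM and a response that passed in Het alone. Hmox1 (chr8:75093621-75100589, plus strand) was 7.28, 10.4 and 8.16 FPKM in WT saline, 6.87 and 7.44 in Het saline and 14.8 and 16.0 in OE saline. After APAP it was 12.4, 13.9 and 46.2 in WT, 36.0, 89.6 and 92.9 in Het, and 18.6 and 30.7 in OE. Within each genotype all APAP livers exceeded all saline livers (10.8% of tested genes in OE), but WT APAP 1 and 2 stayed below both OE saline livers, so the pooled groups overlapped. The Het response was 2.91 ± 0.59 (limma adjusted p = 0.00685), or 10.2 times by the mean FPKM. The responses in WT (1.0 ± 0.54, adjusted p = 0.301) and OE (0.61 ± 0.58, adjusted p = 1) did not pass in limma. The test of the Het response minus the WT response did not pass either (1.91 ± 0.71, limma adjusted p = 0.601), though it did with array weights (2.28, limma adjusted p = 0.0334). The averaged response of 1.51 ± 0.35 (limma adjusted p = 0.0118) was lost without OE saline 2 (1.46, adjusted p = 0.0638), without OE APAP 2 (1.20, adjusted p = 0.111) and without OE saline 2 and OE APAP 1 together (1.46, adjusted p = 0.0568). With lane in place of perfusion the Het response was 2.18 (limma adjusted p = 0.0784), which is also the difference within lane L008, between 1 APAP and 2 saline libraries.

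Markers of monocytes and infiltrating macrophages moved with Hmox1. Of 9 tested markers of that list 7 rose in the averaged response and none fell, beside 9.81% of all genes called higher. Of the 9, 2 (Chil3 and Itgam) lay below 1 FPKM in every saline liver and entered the test only through APAP livers, so the count is a description. The summed level of the 10 markers was 52.3 to 132 FPKM in saline livers, 94.0, 132 and 414 in WT APAP, 291, 473 and 475 in Het APAP, and 66.0 and 169 in OE APAP. Lyz2 and Spp1 gave the largest parts of it, such as 185 and 163 of the 475 FPKM in Het APAP 3. The 4 livers with the highest sums (Het APAP 3, 2 and 1 and WT APAP 3) were also the 4 with the highest Hmox1. OE saline 2 went the other way, with 16.0 FPKM of Hmox1 and the lowest sum of all. Gpnmb was at 0 in WT saline 1 and Het saline 2. The 6 neutrophil markers summed to 1.71 to 8.91 FPKM in saline and 5.45 to 447 in APAP livers. The 3 that could be tested rose (9.81% of all genes did), of which Csf3r was below 1 FPKM in every saline liver. Of 8 Kupffer cell markers 0 passed, with sums of 115 to 249 FPKM in saline and 94.2 to 287 in APAP. The part of these cells in the Hmox1 result was not tested.

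**Figure D3:**
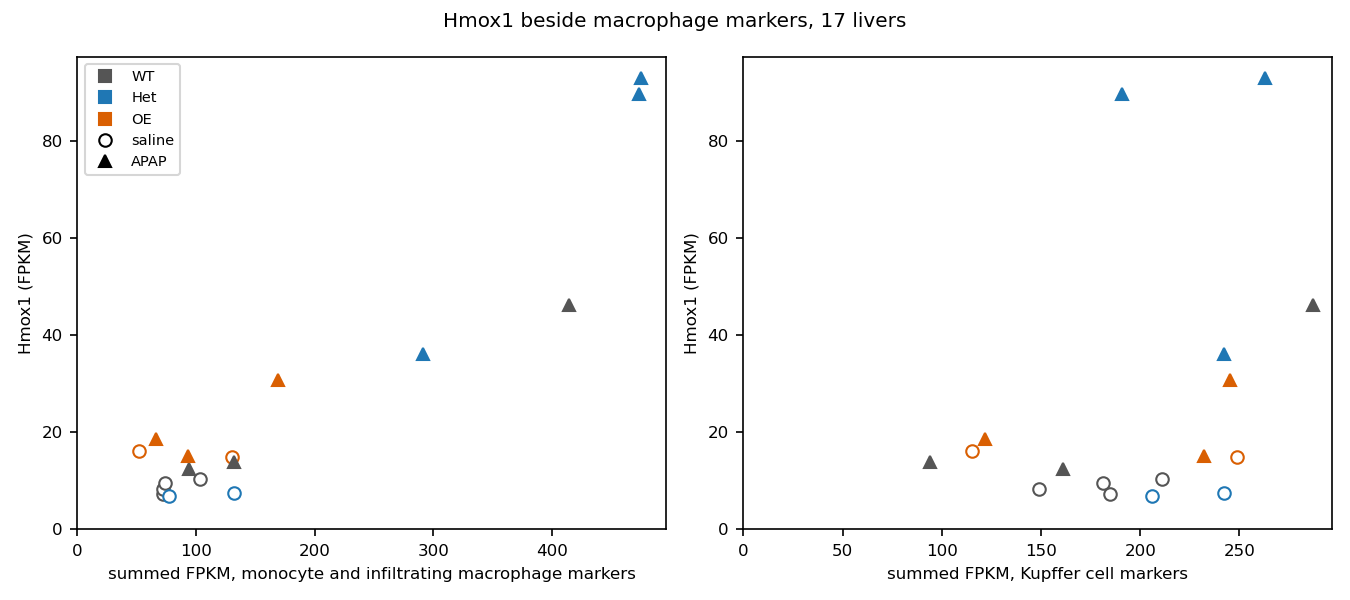
Hmox1 in FPKM (vertical axes) against the summed FPKM of 10 monocyte and infiltrating macrophage markers (left) and of 8 Kupffer cell markers (right), one point per library, coloured by genotype label, with circles for saline and triangles for APAP. On the left, Het APAP 2 and 3, with 89.6 and 92.9 FPKM of Hmox1, have sums of 473 and 475, and OE saline 2 has 16.0 FPKM of Hmox1 at the lowest sum, 52.3.

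Nqo1 and Cbr3 encode reductases of quinones and carbonyls, and only Cbr3 rose. Nqo1 (chr8:107388225-107403206, minus strand), the textbook Nrf2 target, was 3.43, 3.87 and 3.97 FPKM in WT saline and 2.82, 8.97 and 3.44 in WT APAP. It was 5.09 and 5.01 in Het saline and 8.51, 5.86 and 3.06 in Het APAP, and 3.34 and 5.53 against 7.45 and 4.06 in OE. WT APAP 2, Het APAP 1, Het APAP 2 and OE APAP 1 stood above every saline liver. WT APAP 1, WT APAP 3, Het APAP 3 and OE APAP 2 each lay below at least 1 saline liver of their genotype. The averaged response was 0.17 ± 0.28 (95% interval -0.45 to 0.79; limma adjusted p = 0.708), an interval that includes a fall as well as a rise. Without Het APAP 1 the averaged estimate turned to -0.14.

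Cbr3, carbonyl reductase 3 (chr16:93683215-93690990, plus strand), was listed at 0.225, 0 and 0.142 FPKM in WT saline, 0.602 and 0.287 in Het saline and 0.559 and 0.239 in OE saline. After APAP it was 0.825, 2.79 and 1.91 in WT, 2.38, 2.2 and 1.57 in Het, and 0.711 and 1.06 in OE. All 8 APAP livers lay above all 7 saline livers, as they did for 1.31% of the tested genes. The averaged response was 1.01 ± 0.17 (limma adjusted p = 0.00209), with 1.40 ± 0.27 in WT (adjusted p = 0.014), 1.20 ± 0.29 in Het (adjusted p = 0.0132) and 0.43 ± 0.29 in OE (adjusted p = 1). The WT call was lost without WT saline 3 (1.57, limma adjusted p = 0.0551) and with no filter on low values (1.40, adjusted p = 0.0549), and the Het call without Het saline 2 (1.04, adjusted p = 0.0952) and with lane as the term (1.24, adjusted p = 0.0713). Cbr1, the neighbouring and related carbonyl reductase, did not pass (-0.27 ± 0.16, limma adjusted p = 0.256).

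The transporters Abcc4 and Slc7a11 were near the floor in saline livers and higher after APAP. Abcc4 (chr14:118482692-118706219, minus strand), the efflux pump MRP4 of the basolateral membrane, was 0.532, 0.492 and 0.525 FPKM in WT saline, 0.584 and 0.429 in Het saline and 0.646 and 0.428 in OE saline. After APAP it was 3.62, 4.37 and 3.26 in WT, 2.64, 1.31 and 2.10 in Het, and 0.868 and 1.29 in OE. The saline livers kept to a narrow range whatever the genotype label, and all APAP livers lay above them, as in 1.31% of tested genes. The WT, Het and OE APAP livers did not overlap one another, but how many genes separate in that way was not counted. By the mean FPKM the rise was 7.26 times in WT, 3.98 times in Het and 2.00 times in OE. On the log2(FPKM + 1) scale it was 1.79 ± 0.18 in WT (limma adjusted p = 0.000712), 1.13 ± 0.20 in Het (adjusted p = 0.00278) and 0.43 ± 0.20 in OE (adjusted p = 1). The WT and Het calls held in every alternative that kept Abcc4 among the tested genes and gave an estimate, which lane as the term did not for WT.

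Slc7a11 (chr3:49892526-50443614, minus strand), the light chain of the cystine importer, was listed at 0, 0 and 0.0241 FPKM in WT saline, 0.0149 and 0.0188 in Het saline and 0.138 and 0 in OE saline. After APAP it was listed at 1.03, 0.524 and 1.84 in WT, 1.53, 1.27 and 1.76 in Het, and 0 and 0.438 in OE. Within WT and within Het every APAP liver lay above every saline liver, as in 16.4% and 25.4% of tested genes. In OE 1 APAP liver was at 0, as was 1 saline liver. With no filter on low values, the averaged response was 0.90 ± 0.15 (limma adjusted p = 0.0085; 2.65% of 32149 genes called higher) and the Het response 1.40 ± 0.25 (adjusted p = 0.0131; 2.89% called higher), while WT (1.13 ± 0.23, adjusted p = 0.0623) and OE (0.17 ± 0.24, adjusted p = 1) did not pass. Its partner Slc3a2, the shared heavy chain, rose by a smaller amount (0.54 ± 0.11, limma adjusted p = 0.00484).

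Between genotype labels, Srxn1 after APAP was the only one of the 8 tested genes called. It was lower in OE than in Het by -0.89 ± 0.18 (log2, SE; limma adjusted p = 0.0113). The levels of 27.6 and 29.2 FPKM in OE did not overlap those of 50.5 to 61.3 in Het, a separation not counted over all genes. In this comparison 4.94% of all genes were called lower (13.7% in either direction), and 969 of the 11083 genes were called higher. The Srxn1 call was lost without OE APAP 1 (-0.69, limma adjusted p = 0.289), without OE saline 2 and OE APAP 1 (-0.74, adjusted p = 0.251) and with lane as the term (-0.92, adjusted p = 0.25); the difference within lane L008, of 1 library each, was -0.77. In the same comparison 6 of 9 tested monocyte and macrophage markers were lower in OE and 3 of 7 tested hepatocyte markers higher, and their part in it was not tested. With no filter on low values Slc7a11 was also lower in OE than in Het after APAP (-1.09 ± 0.22, limma adjusted p = 0.0364; 1.44% of genes called lower).

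Other genotype differences of these genes did not pass. Abcc4 after APAP was lower in OE than in WT by -1.31 ± 0.19 (limma adjusted p = 0.0539) and in Het than in WT by -0.75 ± 0.17 (adjusted p = 0.0645), in comparisons that called 0.00902% and 0.0541% of all genes. These calls changed with single libraries and with processing choices that kept all libraries. Abcc4 in OE minus WT passed without WT saline 3 (-1.36, limma adjusted p = 0.0235), without WT APAP 1 (-1.33, adjusted p = 0.0399) or without OE APAP 2 (-1.34, adjusted p = 0.0345), and with the IG and 300 mg/kg libraries pooled into their groups (-1.21, adjusted p = 0.0336) or failed zeros kept (-1.31, adjusted p = 0.0455). In Het minus WT it passed without WT saline 3 (-0.78, adjusted p = 0.0392), WT APAP 3 (-0.83, adjusted p = 0.0208) or Het APAP 1 (-0.82, adjusted p = 0.0298), and with lane as the term (-0.82, adjusted p = 0.0273) or array weights (-0.70, adjusted p = 0.00937). Abcc4 in OE minus Het (-0.56 ± 0.18, limma adjusted p = 0.0581) passed without Het APAP 2 (-0.70, adjusted p = 0.0372), with array weights (-0.64, adjusted p = 0.0362) and with that pooling (-0.48, adjusted p = 0.0477). Hmox1 after APAP was higher in Het than in WT by 1.76 ± 0.49 (limma adjusted p = 0.0958); without WT APAP 3, the WT liver at 46.2 FPKM, it passed (2.34, adjusted p = 0.00645), as it did without Het APAP 1 (2.12, adjusted p = 0.0323), with lane as the term (2.12, adjusted p = 0.039) and with array weights (2.23, adjusted p = 0.00668). In OE minus Het after APAP, Hmox1 (-1.41 ± 0.53, limma adjusted p = 0.104) also passed without WT APAP 3 (-1.41, adjusted p = 0.0226) or Het APAP 1 (-1.99, adjusted p = 0.0328) or with the pooling (-1.66, adjusted p = 0.0212), and Cbr3 (-0.72 ± 0.27, adjusted p = 0.089) without WT APAP 1 (-0.72, adjusted p = 0.0336). Under saline, Srxn1 was lowest in WT, without overlap with Het or OE, a separation not counted over all genes. Neither OE minus WT (0.92 ± 0.18, limma adjusted p = 0.201) nor Het minus WT (0.60 ± 0.19, adjusted p = 0.275) passed, and each of these comparisons called 0.0361% of genes. With array weights 2 of the 8 genes passed in Het minus WT, Srxn1 among them (0.59, limma adjusted p = 0.00718), in a fit that called 1706 genes there. OE minus Het under saline called none of the 8 (0.00902% of all genes). The difference in APAP response between labels was tested directly. None of the 8 passed in any of the 3 such comparisons (0%, 0% and 0.018% of all genes called), and the nearest was Srxn1 in OE minus Het (-1.21 ± 0.28, limma adjusted p = 0.0992). It passed without OE APAP 2 (-1.35, limma adjusted p = 0.0427) and with the pooling (-1.51, adjusted p = 0.0345). In OE minus WT the differences were -1.36 ± 0.27 for both Srxn1 and Abcc4 (limma adjusted p = 0.414 for each). In Het minus WT, Hmox1 passed with array weights (2.28, limma adjusted p = 0.0334), in a fit that called 432 genes there.

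The wider Nrf2 pathway, a list of 62 genes sorted by role, split evenly around these targets. Apart from the 9 genes, 51 were tested in the averaged response: 8 rose, 8 fell and 35 did not pass, with a median of -0.05, against -0.02 over all genes, of which 9.81% rose and 13.3% fell. In Nrf2 control, 2 of 12 rose, both small Maf partners of Nrf2 (Mafk 0.63 ± 0.12, limma adjusted p = 0.00418; Maff 0.88 ± 0.22, adjusted p = 0.0135), and the third, Mafg, fell (-0.48 ± 0.11, adjusted p = 0.00963). The glutathione list had 1 of 9 genes higher and none lower. That gene was Gsta1, a glutathione transferase, which moved from 5.11 to 45.1 FPKM in saline livers to 41.8 to 185 in APAP livers (3.55 ± 0.40, limma adjusted p = 0.000499); it has close copies whose reads may be shared, so its size is uncertain. Gclc and Gclm, the subunits of the rate-limiting enzyme of glutathione synthesis, had differences of -0.05 ± 0.17 and -0.20 ± 0.15 (limma adjusted p = 0.863 and 0.365).

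Among genes that supply NADPH, both dehydrogenases of the pentose phosphate pathway rose (G6pdx 0.90 ± 0.17, limma adjusted p = 0.00353; Pgd 1.03 ± 0.20, adjusted p = 0.0044) and malic enzyme Me1 fell (-0.87 ± 0.16, adjusted p = 0.00272), of 6 tested. Me1 was 65.4 to 112 FPKM in WT saline but 29.0 to 33.6 in Het and OE saline, which overlaps its APAP range of 18.7 to 42.6. For haem and iron, Fth1, the ferritin heavy chain, rose with Hmox1 (0.59 ± 0.14, limma adjusted p = 0.0118), and the other 4 tested genes, biliverdin reductases Blvra and Blvrb, Ftl1 and Hmox2, did not pass. Of 8 reductases and related enzymes, Akr1b8 rose with Cbr3 (1.06 ± 0.22, limma adjusted p = 0.00583), whereas Akr7a5 (-0.67 ± 0.11, adjusted p = 0.0013), Aox1 (-1.06 ± 0.21, adjusted p = 0.0048) and Ephx1 (-0.94 ± 0.25, adjusted p = 0.0188) fell. Among the exporters, Abcc4 rose while Abcc3 (-0.81 ± 0.19, limma adjusted p = 0.00884) and Abcc2 (-0.62 ± 0.16, adjusted p = 0.0181) fell. Srxn1 alone rose among 10 thioredoxin and peroxiredoxin genes, and none fell. The next smallest p belonged to Prdx6 (-0.40 ± 0.16, limma adjusted p = 0.0868) and Prdx5 (-0.31 ± 0.14, adjusted p = 0.141), whose negative differences did not pass. The remaining targets had 1 of 4 lower, the carboxylesterase Ces2g (-0.46 ± 0.14, limma adjusted p = 0.0332). Hepatocyte markers fell in the same livers, and their part in the falls was not tested. Maff, Pgd, Akr1b8, Ephx1, Abcc2, Gclc, Gclm, Cbr1, Blvra, Ftl1 and Hmox2 were named after their values were seen.

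**Figure D4:**
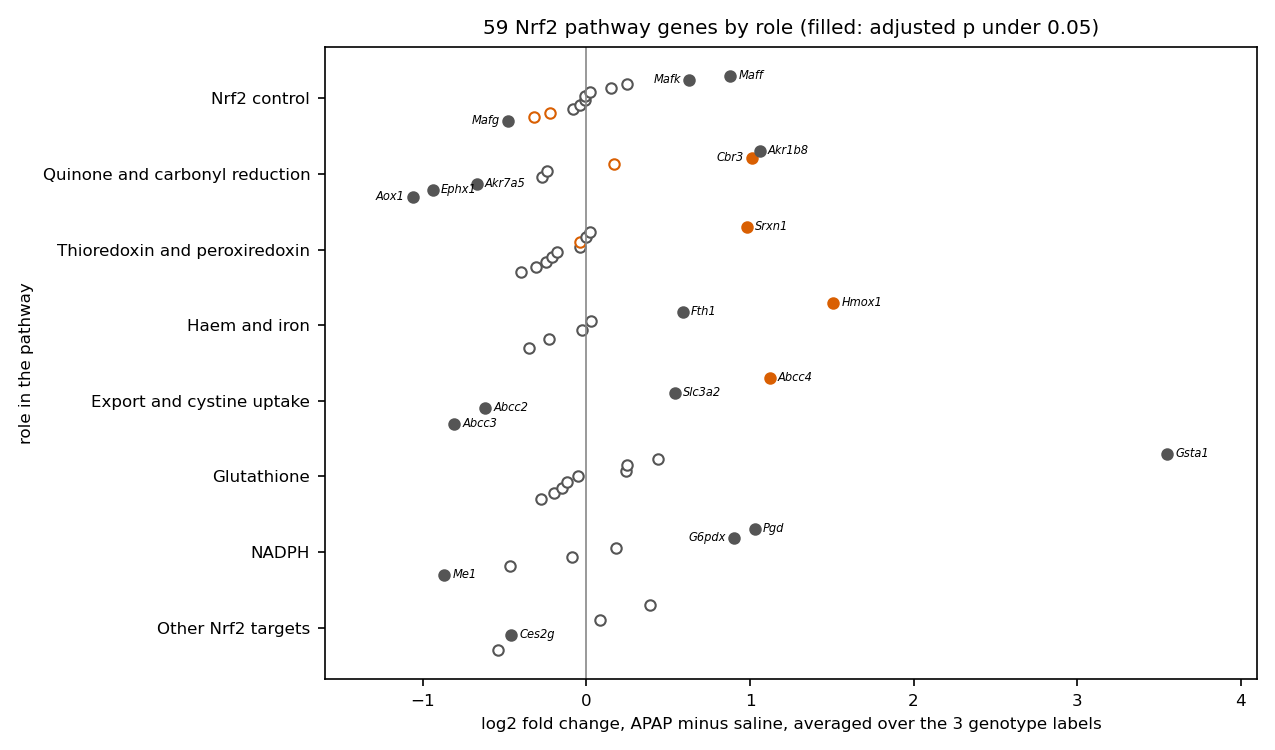
Averaged APAP response (log2 difference on log2(FPKM + 1)) of the tested pathway genes, grouped by role, with genes past the limma threshold of 0.05 filled and Nfe2l2, Keap1 and their 6 tested targets in orange. Gsta1 (3.55) and Hmox1 (1.51) lie farthest above 0 and Aox1 (-1.06) farthest below, and most genes lie near 0.

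For the 4 tested genes whose group means spanned at least 1 on the log2 scale, the most similar profiles over all 17 libraries were sought among 10086 protein-coding genes, by the root mean square difference of centred log2(FPKM + 1) values. Hmox1 was nearest to Clec4d (0.363), Klf6 (0.368) and Plek (0.388), against a spread of 1.11 of Hmox1 about its own mean. Among the genes near Srxn1 were Sept11 (0.285) and Mmp14 (0.295), with a spread of its own of 0.74. Cbr3 was nearest to Cyb5r1 (0.247), Ostc (0.272) and Rhoj (0.282), and Abcc4 to Sept5 (0.309), P3h1 (0.310) and Jpt2 (0.319), with own spreads of 0.58 and 0.64. The 4 genes had no nearest neighbour in common among these.

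By the means of the 6 groups of 2 or 3 libraries, the order of levels separated few neighbours. The share of all genes with such separations was not counted. For Nfe2l2, Keap1, Nqo1 and Txnrd1 all 5 pairs of neighbouring groups overlapped, and their group means spanned only 0.31 to 0.46 on the log2 scale. For Srxn1, whose means spanned 2.00, Het APAP and WT APAP overlapped at the top, OE APAP and OE saline overlapped below them, and Het saline and then WT saline followed without overlap. For Abcc4, with a span of 1.65, WT APAP, Het APAP and OE APAP followed each other without overlap and the 3 saline groups overlapped. For Hmox1, with a span of 3.06, Het APAP did not overlap OE APAP but overlapped WT APAP, through WT APAP 3 (46.2 FPKM, against 36.0 in Het APAP 1), and OE saline lay above WT and Het saline without overlap. Cbr3, with a span of 1.44, had Het and WT APAP overlapping each other and OE APAP overlapping WT APAP, all above the saline groups. Slc7a11, with a span of 1.32, separated only WT APAP from OE APAP, and its other 4 pairs of neighbours overlapped.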

How the data were processed

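RNA was from 17 liver samples, prepared per the labels' protocols with a stranded total RNA kit and read as paired ends of 101 cycles. Per the submitters' processing notes, bcl2fastq 2.17.1.14, TopHat2 2.0.9, Cufflinks 2.2.1, Cuffdiff and GRCm38.p5 were used; no label or header names the annotation, the strand setting or a filter. What the authors deposited is 1 table of FPKM values; its header names no unit, and FPKM was inferred from those tools and from the values. The summed FPKM per library was 466883 to 916006, and 10631 to 11496 genes reached 1 FPKM. Read depth is unknown, so no counting interval is given.

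Groups came from the labels. limma 3.58.1 (R 4.3.3, statmod 1.5.0; trend and robust variance) was fitted to log2(FPKM + 1) with 8 group means and a perfusion term (8 residual degrees of freedom), over the 11083 genes whose mean over the libraries reached 1 FPKM. Left out as failed estimates were 108 genes at 0 through a genotype and drug block but at a mean of 10 FPKM or more in another, and 6 neighbours within 100 kb with the same zeros, and none is among the 9 genes. All 13 comparisons and 26 alternatives used this fit, tested on simulated data. Values, intervals (95%) and p-values measure the spread between these libraries; no label ties each to a mouse of its own, so part of it may be technical. The 3 APAP responses compare different libraries but share the perfusion term and the estimate of the spread, so they are not independent. Each genotype comparison shares libraries with others. The closest 2 libraries differed by a median of 0.135 (log2), so none was treated as a duplicate.

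The 9 genes, the pathway and marker lists and the tests were chosen with earlier results of these data known. Named besides the 9 were Nampt, up to 2 genes per role list with the smallest p in the averaged response, and the 3 genes nearest in profile to each tested gene whose group means spanned at least 1, of which 1 is not reported here. GENCODE M21 gave gene positions; RefSeq gave promoters.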

Additional observations from a re-analysis of the deposited data

Results flagged for a closer look

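The single OE liver given 300 mg/kg APAP entered a comparison only where it was pooled with the OE livers given 200 mg/kg, as an alternative. In it 3 of the 8 tested genes, and Slc7a11, lay above all 8 saline livers, as did 20.0% of all tested genes. Nqo1 was 7.14 FPKM there, against at most 5.53 in the saline livers, and Cbr3 was 1.70, against at most 0.602. Abcc4 was 1.26, against at most 0.646, and Slc7a11 was 0.169, against at most 0.138. Each value is 1 library with no replicate, so no test was made. Srxn1, at 18.1 FPKM, and Hmox1, at 15.1 FPKM, lay within the range of the saline livers. Txnrd1, at 25.8 FPKM, and Keap1, at 8.20 FPKM, were at their lowest of the 17 libraries there; 20.4% of tested genes lay below all saline livers in this library.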

How the results depend on the processing

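Nqo1 responses had no stable sign, and calls in OE and between genotype labels rest on few libraries; no read depth is known. In WT and Het the calls of Srxn1 and Abcc4 held in every alternative that tested them, as did the averaged calls of Srxn1, Cbr3 and Abcc4. With lane as the term the WT and averaged responses had no estimate, so the WT and averaged calls were not tested against lane. No paired analysis was possible because the labels give no replicate numbers. The cause of the shifts below was not tested, except that a mean of at least 5 FPKM removes Cbr3 and Abcc4.

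The numbers of genes past the threshold were 2561 in the averaged response, 614 in WT, 2459 in Het and 0 in OE. They were 4, 4 and 1 under saline (Het minus WT, OE minus WT, OE minus Het), 6, 1 and 1517 after APAP in the same order, and 0, 0 and 2 for the differences in response. Without OE saline 2 and OE APAP 1 they were 1641 (averaged), 2 (OE), 9, 0 and 23 (saline), 37 in Het minus WT and 1 in OE minus Het (APAP), and 1 for the difference OE minus WT, with 0 of the 8 genes called in OE minus Het after APAP. With no filter on low values they were 170 (WT), 1 (OE), 3 in OE minus Het (saline), 60, 3 and 911 (APAP) and 4, 1 and 4 (differences), with 2 of the genes called in OE minus Het after APAP, Srxn1 and Slc7a11. With a mean of at least 5 FPKM they were 89 in Het minus WT after APAP and 5 for the difference OE minus Het, and 2, 1 and 2 of the genes were called in the averaged, WT and Het responses. With no perfusion term they were 1240 (WT), 1 in Het minus WT (saline), 1 and 0 in Het minus WT and OE minus WT (APAP), and 4 for the difference OE minus Het. With the IG and 300 mg/kg libraries pooled into their groups they were 1069 (WT), 2 (OE), 1 and 0 in Het minus WT and OE minus WT (saline), 10 and 22 in the same comparisons after APAP, and 262 for the difference OE minus Het. That pooling called 1 of the genes in OE minus WT and 3 in OE minus Het after APAP, and 1 in the difference OE minus Het. With lane in place of perfusion they were 842 (Het), 9 in OE minus Het (saline), 755, 4 and 4 (APAP) and 12 for the difference OE minus Het, with 2 of the genes called in Het, 2 in Het minus WT and 0 in OE minus Het after APAP. With failed zeros kept they were 13 (OE), 34, 16 and 12 (saline), 110 and 4 in Het minus WT and OE minus WT (APAP) and 30, 9 and 53 (differences), with 1 of the genes called in OE minus WT after APAP. A pseudocount of 0.1 gave 2 and 73 in Het minus WT under saline and after APAP. Quantile normalisation gave 1 and 2 in Het minus WT and OE minus WT (saline) and 90 and 0 in the same after APAP. Array weights gave 1706 in Het minus WT under saline, 1500 and 0 in Het minus WT and OE minus WT after APAP, and 432 and 5 for the differences Het minus WT and OE minus Het; 2 of the genes were called in Het minus WT under saline, 2 in it after APAP, 2 in OE minus Het after APAP and 1 in the difference Het minus WT.

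Leaving out 1 library at a time, the genes called ranged from 878 (without OE APAP 2) to 2690 in the averaged response, 138 (without WT saline 3) to 968 (without Het APAP 1) in WT, 888 (without Het saline 1) to 2633 in Het and 0 to 12 in OE. Under saline the ranges were 0 to 11, 0 to 7 and 0 to 2, after APAP 1 to 852 (without WT APAP 3), 0 to 99 (without OE APAP 2) and 5 (without OE APAP 1) to 1910, and for the differences 0 to 2, 0 to 1 and 0 to 473 (without Het APAP 1). Of the 8 genes, 0 to 2 were called in Het minus WT, 0 to 1 in OE minus WT and 0 to 2 in OE minus Het after APAP, and 0 to 1 in the difference OE minus Het.

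Signs that turned belong to values that did not pass. Txnrd1 turned to 0.04 averaged and 0.02 in WT without OE saline 2 and OE APAP 1, to 0.07 and 0.09 with no perfusion term, to 0.11 and 0.09 after quantile normalisation, to 0.00 in WT with array weights and to -0.01 in OE with the rare labels pooled. Srxn1 in OE turned to -0.11 with that pooling, and its difference in response Het minus WT to 0.09 after quantile normalisation. Without OE saline 2 and OE APAP 1, Nfe2l2 in OE turned to 0.02 and the Hmox1 difference OE minus WT to 0.26. Cbr3 in OE minus Het under saline turned to -0.05 with no perfusion term and with the pooling, and to -0.04 after quantile normalisation. Array weights turned Nqo1 in Het to -0.25 and Cbr3 in Het minus WT after APAP to -0.12. Leaving out 1 library, the Nqo1 response ranged from -0.14 to 0.39 averaged, -0.25 to 0.44 in WT, -0.63 to 0.30 in Het and -0.13 to 0.72 in OE. Txnrd1 ranged from -0.11 to 0.04 averaged and -0.14 to 0.02 in WT, Nfe2l2 in OE from -0.47 to 0.11 and Srxn1 in OE from -0.08 to 0.31. Hmox1 ranged from -0.29 to 0.06 in Het minus WT under saline, -0.11 to 1.06 in OE minus WT after APAP and -0.81 to 0.36 in the difference OE minus WT. Cbr3 ranged from -0.11 to 0.20 in OE minus Het under saline, -0.19 to 0.33 in Het minus WT after APAP and -0.49 to 0.03 in the difference Het minus WT.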

Other observations

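The WT liver whose saline is labelled IG entered a comparison only where it was pooled with the WT saline group, as an alternative. Its levels were 22.1 FPKM for Nfe2l2, 11.5 for Keap1, 2.99 for Nqo1, 9.48 for Hmox1, 13.7 for Srxn1, 39.7 for Txnrd1, 0.584 for Cbr3 and 0.533 for Abcc4, and Slc7a11 was listed at 0. Nqo1 was lower than in the 3 WT livers of the saline group (3.43 to 3.97 FPKM), and Cbr3 was higher than in them (at most 0.225 FPKM).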
